A study of Homo sapiens with 28 samples.

Results

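Common fragile sites are chromosomal regions that break or show gaps when DNA replication is slowed, and many of them lie in very long genes. The 9 genes described here, FHIT, WWOX, MACROD2, CSMD1, PTPRN2, LRP1B, IMMP2L, CNTNAP2 and NBEA, were chosen by name as large genes at such sites. They are 9 of the 19970 protein-coding genes of GENCODE release 44 (human genome build hg38) that were counted, and 9 of the 322 that span 500 kb or more. The peaks came from chromatin immunoprecipitation sequencing (ChIP-seq) in U2OS cells, a human osteosarcoma line. Dimethylated lysine 36 of histone H3 (H3K36me2) was measured in wild-type cells of this line, with 2 biological replicates left unirradiated and 2 collected at 3 h following UV-C at 20 J m-2, each against input chromatin. The carboxy-terminal domain (CTD) of the histone methyltransferase ASH1L, with a Flag tag, was measured in ASH1L-/- U2OS cells transfected with a CTD expression vector, with 3 biological replicates of unirradiated cells and 3 collected at 3 h following the same dose. Its controls were anti-Flag libraries of ASH1L-/- cells transfected with empty vector. The ASH1L-/- cells descend from isolated colonies, and the CTD was expressed from a transfected vector, not from the endogenous gene.

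Many genes of this kind replicate late in S phase, and origins of replication are sparse in their bodies. H3K36me2 is a mark of intergenic and intronic chromatin that ASH1L and the NSD enzymes can place. Helix-distorting UV lesions in chromatin are removed by nucleotide excision repair, for which the study examined ASH1L, and the comparison of 3 h after UV with no UV asks where the mark and the CTD are found while lesions are being processed.

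Each of the 10 lists held exactly 500000 broad peaks, so a count in a gene is a share of a fixed total and cannot show a change in the total. The lists carry no read depth. Their lowest −log10 p (peak caller) was 1.22 to 1.42. The p cutoff stated in the paper equals a −log10 p of 2. That value was reached by 40.81% to 44.96% of peaks in the H3K36me2 lists and 5.86% to 8.42% in the CTD lists. At 3 or more, the 9 genes held 78 to 104 H3K36me2 peaks and 0 to 3 CTD peaks per list. Unless stated, counts below use all listed peaks and so rest mostly on values under 2, most of all for the CTD. The median peak was 556 to 621 bp wide in the H3K36me2 lists and 422 to 512 bp wide in the CTD lists. As a check of the labels, 22 to 24 of the 27 coding exons of ASH1L lay under a peak in the 6 CTD lists, whose construct carries part of that coding sequence, and 0 in the 4 H3K36me2 lists. By the study's reporting form, the CTD peaks were called against pooled empty-vector libraries at 3 h and against the matched library without UV, and this difference cannot be told apart from that between the conditions.

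Sites that recurred in every list of an assay are shown first. Recurrence can rise with how much of a gene the peaks cover, and no rate for randomly placed peaks was computed. For H3K36me2, overlapping peaks of the 4 lists merged into 3364 sites in the 9 genes, of which 477 (14.2%) held a peak in all 4. For the CTD, 5318 merged sites contained 38 (0.715%) with a peak in all 6 lists. CTD coverage was highest of the 9 genes in PTPRN2 (17.9%), MACROD2 (10.7%) and WWOX (7.81%). All 38 recurrent CTD sites lay in PTPRN2 (18), MACROD2 (14), WWOX (4) and CNTNAP2 (2). The strongest of the sites found in every list, in each of 3 genes for H3K36me2 and 2 for the CTD, are printed. They were ranked by the lowest of the fold enrichments that the lists gave them, with CSMD1 left out. Shown are the central 200 bases of the hg38 forward strand in lower case, with each CpG in capitals. All 5 lay in introns.
MACROD2, H3K36me2, intron 3, chr20:14404804-14405003: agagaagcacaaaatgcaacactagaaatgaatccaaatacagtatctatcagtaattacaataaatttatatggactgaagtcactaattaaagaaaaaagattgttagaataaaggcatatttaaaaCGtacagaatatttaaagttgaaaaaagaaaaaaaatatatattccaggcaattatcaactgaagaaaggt
WWOX, H3K36me2, intron 8, chr16:79186671-79186870: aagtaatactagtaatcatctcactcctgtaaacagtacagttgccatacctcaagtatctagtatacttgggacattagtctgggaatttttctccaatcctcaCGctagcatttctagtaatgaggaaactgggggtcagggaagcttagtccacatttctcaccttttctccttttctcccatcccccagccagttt
LRP1B, H3K36me2, intron 1, chr2:142035617-142035816: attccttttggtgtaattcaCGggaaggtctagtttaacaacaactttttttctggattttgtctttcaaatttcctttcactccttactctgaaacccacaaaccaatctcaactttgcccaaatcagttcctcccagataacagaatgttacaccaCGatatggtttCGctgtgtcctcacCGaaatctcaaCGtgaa
PTPRN2, CTD, intron 2, chr7:158403172-158403371: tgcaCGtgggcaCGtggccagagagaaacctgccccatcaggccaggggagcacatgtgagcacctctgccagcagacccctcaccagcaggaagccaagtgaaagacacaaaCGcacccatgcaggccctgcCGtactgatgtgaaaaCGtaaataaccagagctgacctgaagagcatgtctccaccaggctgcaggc
MACROD2, CTD, intron 5, chr20:14997262-14997461: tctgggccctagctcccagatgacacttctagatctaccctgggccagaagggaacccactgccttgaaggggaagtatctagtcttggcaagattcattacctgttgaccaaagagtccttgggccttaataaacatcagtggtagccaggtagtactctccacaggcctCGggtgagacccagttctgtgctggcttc

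The H3K36me2 site in MACROD2 (chr20:14404213-14405593) was AT-rich, with 25.5% GC in the printed bases against 37.9% over the gene, and had fold enrichments over input of 3.30 and 2.62 without UV, then 2.92 and 2.82 at 3 h. The site in WWOX (chr16:79182878-79190663, 42.5% GC) merged to 7786 bp, with 2.56 and 2.59 without UV and 2.58 and 2.35 at 3 h, and overlapped a peak in 6 of 6 CTD lists. The site in LRP1B (chr2:142035174-142036258, 39.5% GC) had 2.24 and 2.29 without UV, then 2.34 and 2.76 at 3 h. Over all peaks of a gene, mean GC content was higher for H3K36me2 than for the CTD in every one of these genes. It was 44.2% against 41.5% in MACROD2, 57.0% against 53.1% in PTPRN2 and 43.5% against 39.0% in LRP1B. Mean GC content of the CTD peaks also lay above that of the gene in every one of these genes, for example 39.0% against 34.8% in LRP1B. The printed bases of the CTD sites were likewise richer in GC than the genes around them. The site in PTPRN2 (chr7:158400914-158405628, 58.5% GC) had 1.88, 1.94 and 1.87 without UV and 1.84, 2.14 and 2.17 at 3 h, and overlapped a peak in 0 of 4 H3K36me2 lists. The CTD site in MACROD2 (chr20:14995190-14999533, 52.5% GC) had 1.76, 1.91 and 2.45 without UV and 1.89, 1.83 and 1.90 at 3 h, and overlapped an H3K36me2 peak in 4 of 4 lists. Each value is the highest fold of that list over the merged site. The median fold of all peaks was 1.82 to 1.89 in the H3K36me2 lists and 1.72 to 1.82 in the CTD lists. The 1.76 of MACROD2 lay below the median of its list, 1.77.

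Peak centres per gene were then set out for every list. FHIT, a hydrolase of dinucleoside polyphosphates at the fragile site FRA3B, spans 1504183 bp (chr3:59747277-61251459, minus strand). It held 252 and 213 H3K36me2 peaks without UV and 263 and 254 at 3 h. CTD peaks in FHIT numbered 159, 163 and 166 without UV and 127, 158 and 147 at 3 h. In FHIT the values at 3 h lay above those without UV for H3K36me2 and below them for the CTD, with no overlap of the replicates in either assay. The closest values were 254 against 252 for H3K36me2 and 158 against 159 for the CTD. Of the 3661 protein-coding genes of 100 kb or more, 21.1% and 2.02% separated in these directions. Bases of FHIT under a peak overlapped between the conditions in both assays. MACROD2, which removes ADP-ribose from proteins, spans 2.06 Mbp (chr20:13995369-16053197, plus strand) and encloses FLRT3. It held the most H3K36me2 peaks of the 9 genes, 534 and 509 in unirradiated cells and 577 and 564 at 3 h. CTD peaks in MACROD2 numbered 387, 397 and 441 without UV, then 386, 433 and 362 at 3 h. The CTD values of the 2 conditions overlapped in MACROD2. IMMP2L, a subunit of the peptidase of the mitochondrial inner membrane, spans 0.900 Mbp (chr7:110662644-111562517, minus strand) and encloses LRRN3. It held 173 and 154 H3K36me2 peaks without UV and 173 and 188 at 3 h, but 43, 46 and 53 CTD peaks without UV and 44, 63 and 53 at 3 h. WWOX, a WW-domain oxidoreductase at the fragile site FRA16D, spans 1.11 Mbp (chr16:78099400-79212667, plus strand). It held 198 and 246 H3K36me2 peaks without UV, 209 and 203 at 3 h, and between 135 and 194 CTD peaks in the 6 lists, with overlap of the conditions in both assays.

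The next 4 genes code for proteins of the cell surface or of vesicle membranes. LRP1B, a giant relative of the LDL receptor, spans 1.90 Mbp (chr2:140231423-142131016, minus strand). It held 267 and 221 H3K36me2 peaks without UV and 264 and 268 at 3 h. CTD peaks in LRP1B numbered 152, 177 and 206 without UV and 177, 175 and 128 at 3 h, so the conditions overlapped in both assays. CNTNAP2, a cell adhesion protein of the neurexin family, spans 2.30 Mbp (chr7:146116002-148420998, plus strand) and is the longest of the 9. It held 108 and 82 H3K36me2 peaks without UV and 100 and 101 at 3 h, and between 98 and 116 CTD peaks. CSMD1, a membrane protein that restrains complement, spans 2.06 Mbp (chr8:2935353-4994972, minus strand). It held 104 and 94 H3K36me2 peaks without UV and 109 and 106 at 3 h. CTD peaks in CSMD1 numbered 184, 179 and 184 without UV and 175, 197 and 175 at 3 h. CSMD1 was thus similar in length to MACROD2 but held far fewer H3K36me2 peaks. PTPRN2, a receptor-type tyrosine phosphatase of dense-core vesicles, spans 1.05 Mbp near the end of the long arm of chromosome 7 (chr7:157539056-158587823, minus strand). It had the highest GC content of the 9, 51.4% against 34.8% to 42.6% in the others. It held 80 and 85 H3K36me2 peaks without UV and 58 and 63 at 3 h. CTD peaks in PTPRN2 numbered 337, 264 and 195 without UV and 265, 197 and 338 at 3 h, with nearly the same range in both conditions. NBEA, which acts in the trafficking of vesicles, is the shortest at 0.731 Mbp (chr13:34942270-35673022, plus strand) and encloses MAB21L1. It held 49 and 40 H3K36me2 peaks without UV and 43 and 37 at 3 h, and 27, 25 and 33 CTD peaks without UV and 28, 27 and 16 at 3 h.

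**Figure D1:**
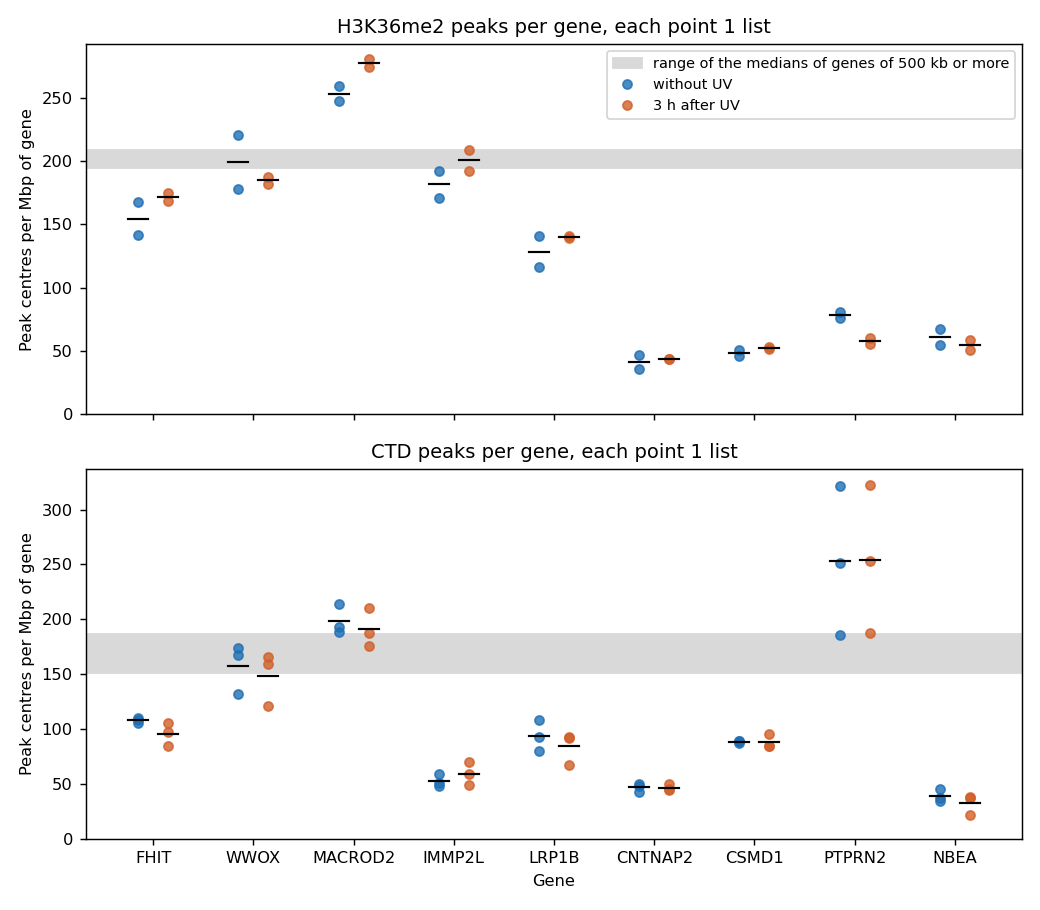
Peak centres per Mbp of gene (vertical axis) for H3K36me2 (top) and the CTD (bottom) in the 9 genes, 1 point per list, blue without UV and orange 3 h after UV, with black bars at the means. The grey band is the range over lists of the median of the 322 genes of 500 kb or more, 194.4 to 209.0 per Mbp for H3K36me2 and 151.2 to 186.3 for the CTD; MACROD2 lay above the first band, PTPRN2 reached far above the second, and CNTNAP2, CSMD1 and NBEA lay far below both.

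Per Mbp, the H3K36me2 levels of the genes fell into a wide order. MACROD2 was highest with 265.3 ± 14.8 peaks per Mbp (SD, n = 4 lists of both conditions), rank 73 of the 322 long genes. WWOX (192.2 ± 19.6), IMMP2L (191.1 ± 15.5) and FHIT (163.2 ± 14.8) followed, and each of them overlapped its neighbour in that order between lists. LRP1B had 134.2 ± 12.0. PTPRN2 (68.2 ± 12.4), NBEA (57.8 ± 7.01), CSMD1 (50.1 ± 3.16) and CNTNAP2 (42.4 ± 4.81) were lowest, at ranks 298 to 306 of 322, and again neighbours overlapped. The lists of MACROD2 and WWOX did not overlap, nor did those of FHIT and LRP1B or of LRP1B and PTPRN2. Bases under a peak followed the same division, from 20.7% ± 0.889 of MACROD2 and 15.3% ± 2.19 of WWOX down to 1.96% ± 0.0470 of CSMD1 and 1.74% ± 0.204 of CNTNAP2 (SD, n = 4).

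For the CTD the order was different. PTPRN2 was highest with 253.6 ± 60.4 peaks per Mbp (SD, n = 6 lists of both conditions), rank 24 of the 322 long genes, and overlapped MACROD2 at 194.9 ± 14.7. WWOX had 153.2 ± 21.4, FHIT 101.9 ± 9.59, LRP1B 89.1 ± 13.9 and CSMD1 88.5 (85.0 to 95.6 between lists), and the last 3 overlapped each other. IMMP2L (55.9 ± 8.42), CNTNAP2 (46.7 ± 3.21) and NBEA (35.6 ± 7.64) were lowest, at ranks 285, 299 and 302. CTD peaks covered 17.9% ± 7.25 of PTPRN2 and 1.15% ± 0.159 of NBEA (SD, n = 6). The coverage of PTPRN2 varied from 10.2% to 27.7% between lists, both extremes without UV. The lists also differed in how density followed GC content over the 322 long genes. Its Spearman correlation was 0.57 and 0.62 in the 2 lists with the most CTD peaks in PTPRN2 (without UV replicate 1 and 3 h replicate 3), and 0.19 and 0.47 in those with the fewest (without UV replicate 3 and 3 h replicate 2). It was 0.44 and 0.41 in the other 2 lists (without UV replicate 2 and 3 h replicate 1), which lay between them in peak number, so the lists did not follow a single order. The part of GC content in the spread of PTPRN2 was not tested.

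The 2 assays were compared gene by gene in the 5 lists without UV, which asks whether a gene takes a larger share of the CTD peaks or of the H3K36me2 peaks. Antibody, genotype and control library differ between the assays and cannot be told apart in this comparison. Of the 9 genes, 2 had a higher share of CTD peaks and 3 a lower share (limma on log2(count + 0.5), Benjamini-Hochberg adjusted p under 0.05), where 24.3% of the 3661 protein-coding genes of 100 kb or more were higher and 13.1% were lower. PTPRN2 had a mean of 265.3 CTD peaks against 82.5 H3K36me2 peaks, a log2 difference of 1.64 (SE 0.229; adjusted p = 0.00359) or 3.13-fold. CSMD1 was higher by 0.88 (SE 0.103; adjusted p = 0.00216), with means of 182.3 and 99. IMMP2L had the reverse pattern, 47.3 CTD peaks against 163.5 H3K36me2 peaks, a log2 difference of -1.78 (SE 0.136; adjusted p = 0.000975) or 3.44-fold fewer. FHIT (-0.51, SE 0.117; adjusted p = 0.0185) and NBEA (-0.64, SE 0.192; adjusted p = 0.0426) were also lower for the CTD. MACROD2 (-0.35), LRP1B (-0.46), WWOX (-0.34) and CNTNAP2 (0.19) did not pass, with adjusted p from 0.0682 to 0.365. The median over the 322 long genes was -0.26, and over all genes tested 0.09.

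Among the 16 long genes with a GC content of 46% or more, the median log2 difference was 0.29, and PTPRN2 had the highest value. Among the 39 with 42% to 46% the median was -0.01, but the highest value was 4.49. The call for PTPRN2 did not hold without H3K36me2 replicate 1 (log2 difference 1.60, adjusted p = 0.0545). That for FHIT did not hold without either H3K36me2 replicate or without CTD replicate 2 (-0.63 to -0.39, adjusted p from 0.0549 to 0.156), nor that for NBEA without either H3K36me2 replicate or without CTD replicate 1 or 2 (-0.79 to -0.50, adjusted p from 0.0829 to 0.265). MACROD2 passed without CTD replicate 3 (-0.41, adjusted p = 0.0485). A minimum -log10 p of 2 for the peaks counted moved the median of all genes to -2.26, a minimum that 5.86% to 8.42% of the peaks in the CTD lists reach. At this minimum the lists without UV held 221366 and 204043 H3K36me2 peaks but 41376, 29323 and 32867 CTD peaks. The counts were not scaled to these unequal totals, so values at this minimum do not compare shares. PTPRN2 then stood at -0.47 and CSMD1 at -1.28, below 0 but above that median, and CNTNAP2 at -2.08.

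**Figure D2:**
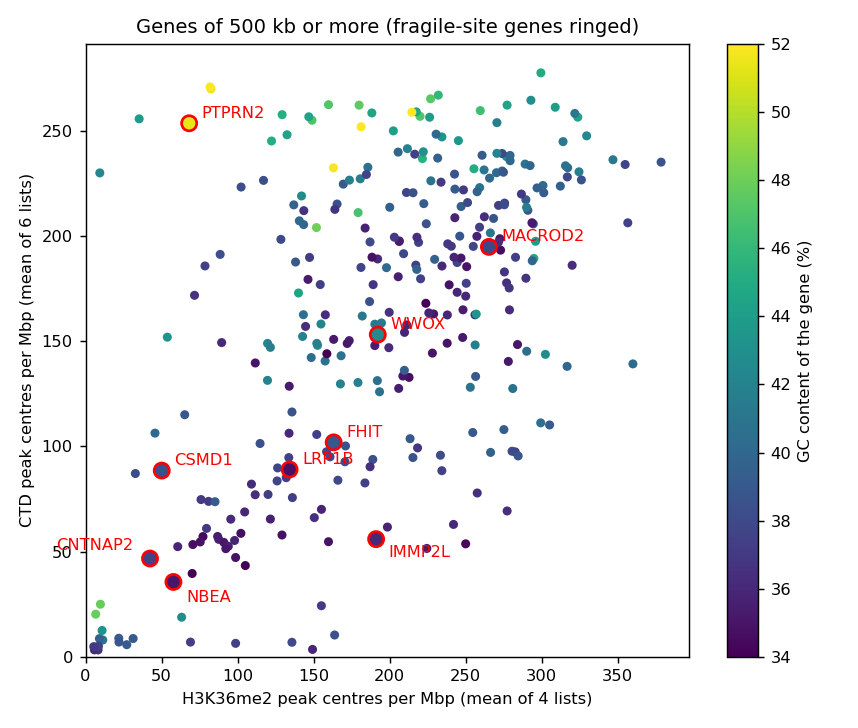
CTD against H3K36me2 peak centres per Mbp (means of 6 and of 4 lists) for the 322 genes of 500 kb or more, coloured by GC content (%), with the 9 fragile-site genes ringed in red. PTPRN2 (68.2 and 253.6) sits at the upper left, IMMP2L (191.1 and 55.9) at the lower right, and CNTNAP2 and NBEA near the origin. Genes near PTPRN2 had both high and moderate GC content, such as 54.9% (81.9 and 270.9) and 42.4% (69.0 and 251.9).

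Each gene was next compared with the 250 kb on either side of it, which asks whether a gene body stands apart from its surroundings. For H3K36me2, 4 of the 9 genes had a lower density than their flanks and 1 a higher one (limma over 3661 genes, mean of both conditions, adjusted p under 0.05), where 39.6% of all genes were lower and 33.7% were higher. NBEA differed most, with 57.8 ± 7.01 peaks per Mbp in the gene against 188.0 ± 18.6 in its flanks (SD, n = 4), a log2 ratio of -1.69 (SE 0.149; adjusted p = 0.000420). LRP1B had 134.2 ± 12.0 against 204.5 ± 20.1 (log2 ratio -0.61, SE 0.0946; adjusted p = 0.00186). CSMD1 (-0.54, SE 0.0981; adjusted p = 0.00361) and CNTNAP2 (-0.39, SE 0.0844; adjusted p = 0.00694) were also lower, in 4 of 4 lists each. MACROD2 was denser than its flanks, 265.3 ± 14.8 against 221.0 ± 13.7 (log2 ratio 0.26, SE 0.0650; adjusted p = 0.0125), in 4 of 4 lists. Its call did not hold without replicate 1 at 3 h (adjusted p = 0.0673) or without replicate 1 without UV (adjusted p = 0.0666). FHIT (0.12), WWOX (-0.10), PTPRN2 (-0.12) and IMMP2L (-0.14) did not pass. With flanks of 500 kb 8 of the 9 genes passed, among them FHIT, which turned to -0.35 (adjusted p = 0.0151), IMMP2L (-0.35, adjusted p = 0.00639) and WWOX (-0.25, adjusted p = 0.0251), and 2759 of the 3661 genes passed.

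For the CTD, 4 of the 9 genes were lower than their flanks and 0 were higher, where 7.81% of all genes were lower and 4.92% were higher. NBEA again differed most, with 35.6 ± 7.64 peaks per Mbp against 93.3 ± 15.1 (SD, n = 6; log2 ratio -1.39, SE 0.143; adjusted p = 0.00160). CNTNAP2 had 46.7 ± 3.21 against 72.3 ± 6.12 (log2 ratio -0.64, SE 0.0987; adjusted p = 0.00643). LRP1B followed with -0.50 (SE 0.0926; adjusted p = 0.0125) and IMMP2L with -0.46 (SE 0.109; adjusted p = 0.0317). Each of the 4 was below its flanks in 6 of 6 lists. The median log2 ratio was -0.08 over the 322 long genes and -0.02 over all genes tested. Of the long genes, 10.6% had a lower ratio than LRP1B and 12.7% a lower one than IMMP2L. How many of the long genes passed was not counted. The call for LRP1B did not hold without replicate 2 without UV (adjusted p = 0.0524), and that for IMMP2L did not hold without any one of the 6 lists (log2 ratio -0.52 to -0.39, adjusted p from 0.0569 to 0.0918). PTPRN2 (-0.01) and CSMD1 (-0.02) lay at the density of their flanks, although they differed from H3K36me2 in level. FHIT had -0.28 (adjusted p = 0.0679), and passed with flanks of 500 kb (-0.38, adjusted p = 0.0215).

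Each gene was divided into 10 equal segments, numbered from its 5′ to its 3′ end. In LRP1B segment 5 (chr2:141181220-141371178) was nearly free of peaks, with 2, 2, 1 and 2 H3K36me2 peaks and 0, 0, 1, 1, 0 and 0 CTD peaks in the 4 and 6 lists. That is 9.21 ± 2.63 and 1.75 ± 2.72 peaks per Mbp (SD, n = 4 and 6). In segment 6 next to it, LRP1B held 28, 27, 33 and 27 H3K36me2 peaks and 13 to 27 CTD peaks. No CTD list had a peak centre over 209.4 kb of this region of LRP1B (chr2:141220347-141429765), the stretch at rank 4 among those of the 322 long genes, whose median was 9.04 kb. Inside it, 114.3 kb (chr2:141220347-141334630) held no peak centre in any of the 10 lists. This stretch encloses 3 exons of LRP1B and has 35.1% GC against 34.8% over the gene. Without read depth, deleted or unmappable sequence cannot be told apart from chromatin without peaks. Copy number and mappability were not tested, here, in the stretches of CNTNAP2 below or in the flank ratios above.

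In CNTNAP2 the peaks lay mainly towards the 5′ end. Its segments 1 to 4 held 105.4 ± 7.18 CTD peaks per Mbp (SD, n = 6; 91 to 105 peaks per list), and its segments 5 to 10 held 7.59 ± 2.23 (7 to 15 peaks per list). For H3K36me2 the values were 66.2 ± 10.4 in segments 1 to 4 (SD, n = 4; 47 to 68 peaks per list) and 26.6 ± 1.99 in segments 5 to 10 (34 to 40 peaks per list). The lists of the 2 parts did not overlap in either assay, and the division was chosen after the values were seen. Between its segments the CTD density of CNTNAP2 varied with a coefficient of variation of 115.8%, and that of LRP1B with 62.2%, against a median of 14.4% over the 322 long genes. Stretches of 50 kb or more with no peak centre in any of the 10 lists were found in 13 of the 322 long genes (4.04%). LRP1B held 2 of these stretches and CNTNAP2 held 4, the longest 72.7 kb (chr7:147708213-147780895), and the other 7 genes held 0.

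For H3K36me2 the coefficient of variation between segments was 64.2% in PTPRN2, 60.3% in CNTNAP2 and 45.8% in LRP1B, against a median of 30.8% over the long genes. In some genes the 2 assays ran differently. In PTPRN2 the CTD density was nearly even, from 235.2 to 262.2 peaks per Mbp between segments, whereas the H3K36me2 density ran from 21.5 in segment 6 to 131.1 in the last. In CSMD1 the last segment had 14.6 H3K36me2 peaks per Mbp but 118.1 CTD peaks per Mbp, and a stretch of 98.7 kb of the gene held no H3K36me2 peak centre, against 16.4 kb for the CTD. WWOX reached 332.4 H3K36me2 peaks per Mbp in its last segment, where the H3K36me2 site printed above lies, from 89.8 in segment 3. FHIT likewise had 297.5 in its last segment and 84.8 in its first. Segments with under 25 H3K36me2 peaks per Mbp made up 7 of the 90 segments of the 9 genes (7.78%) and 194 of the 3220 segments of all long genes (6.02%). For the CTD they were 9 of 90 (10%) and 205 of 3220 (6.37%), and 6 of the 9 were the last segments of CNTNAP2.

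The comparison of 3 h after UV with no UV asks whether these genes gained or lost peaks while lesions were being repaired. For H3K36me2, 0 of the 9 genes passed (limma, adjusted p under 0.05), where 0.191% of all 3661 genes did, and 1 of the 9 had an unadjusted p under 0.05, as did 640 of the 3661. That gene was PTPRN2, whose mean of 82.5 ± 3.54 peaks in unirradiated cells stood against 60.5 ± 3.54 at 3 h (SD, n = 2). The log2 difference was -0.44 (SE 0.0703; limma adjusted p = 0.188). Beside this, the Spearman correlation of H3K36me2 density with GC content over the 322 long genes was 0.17 and 0.25 in the lists without UV and 0.0059 and 0.018 in those at 3 h, and its part in the value of PTPRN2, the gene of the 9 with the most GC, was not tested. FHIT had 232.5 ± 27.6 and 258.5 ± 6.36 (log2 difference 0.16, SE 0.101; adjusted p = 0.470), and MACROD2 521.5 ± 17.7 and 570.5 ± 9.19 (0.13, SE 0.0517; adjusted p = 0.330). The others lay between -0.15 for NBEA and 0.14 for IMMP2L. The median over the 9 genes was 0.12, equal to that over the 322 long genes, and the median over all genes tested was -0.0036. Replicates of the 2 conditions did not overlap, with higher values at 3 h, in 3 of the 9 genes (FHIT, MACROD2 and CSMD1), where 21.1% of all genes had such a pattern. They did not overlap, with lower values at 3 h, in PTPRN2, where 24.4% of all genes had that pattern.

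When bases under a peak were compared in place of peak numbers, 0 of the 9 genes passed for H3K36me2, where 6.88% of all genes passed, 4 of them higher and 248 lower. At an unadjusted p under 0.05 by limma there were 0 of the 9 and 903 of the 3661. With each list centred on its median the called genes became 19 higher and 121 lower. Coverage of PTPRN2 went from 5.34% ± 0.375 to 3.59% ± 0.159 (SD, n = 2), a log2 difference of -0.56 (adjusted p = 0.247), and that of WWOX from 16.8% ± 2.38 to 13.8% ± 0.136 (-0.27, adjusted p = 0.307). The median of all genes was -0.12 on this scale. Among the segments, 0 of the 90 passed for H3K36me2, where 0.373% of the 3220 did (389 with an unadjusted p under 0.05), and the lowest adjusted p among the 90 was 0.357. The largest difference was in segment 2 of PTPRN2, with 7 and 4 peaks without UV and 0 and 3 at 3 h (log2 difference -2.13, SE 1.17; adjusted p = 0.555).

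Counts restricted to H3K36me2 peaks found in both replicates of a condition gave another result. On that count 8 of the 9 genes passed, 6 higher and 2 lower, where 23.7% of all genes were higher and 29.7% were lower. CNTNAP2 (0.54), CSMD1 (0.39), IMMP2L (0.25), LRP1B (0.20), MACROD2 (0.10) and FHIT (0.06) were higher at 3 h, and NBEA (-0.66) and PTPRN2 (-0.46) were lower. The 2 replicates of a condition then share their peaks by construction, so the spread between them is understated and the p-values are too small. Stricter peaks gave NBEA and CSMD1 the opposite sign. They stood at 0.08 and -0.02 with a −log10 p of at least 2, and at 0.34 and -0.29 with the top quartile of fold enrichment. The other genes that passed kept their sign in both settings. With a −log10 p of at least 3, FHIT (-0.17), IMMP2L (-0.22) and PTPRN2 (0.24) also had the opposite sign. None of these values passed by limma. Single sites were counted by whether both lists of a condition held a peak. PTPRN2 had 8 sites with a peak in both lists without UV and in neither at 3 h, and 0 with the reverse. NBEA had 7 and 0, MACROD2 21 and 37, LRP1B 18 and 30, IMMP2L 9 and 14, CNTNAP2 6 and 12, CSMD1 5 and 8, and WWOX 14 and 17. FHIT had 25 and 21, opposite in direction to its count above. Over the 9 genes there were 113 and 139 such sites among 3364. The share in other genes was not counted, and 50.7% of the 3364 sites had a peak in 1 list alone. These counts show no loss or gain by themselves. On all peaks PTPRN2 and NBEA did not pass by limma (adjusted p = 0.188 and 0.619).

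For the CTD, 0 of the 9 genes passed, where 0% of all genes did, with 51 of the 3661 genes and 0 of the 9 having an unadjusted p under 0.05 by limma. FHIT had means of 162.7 ± 3.51 in unirradiated cells and 144.0 ± 15.7 at 3 h (SD, n = 3; log2 difference -0.18, SE 0.121). It was the 1 gene of the 9 whose replicates did not overlap, where 2.02% of all genes were lower in this way, and 0 of the 9 were higher, against 2.29%. NBEA had the largest difference of the 9 (-0.29), and its replicates overlapped, as did those of LRP1B (-0.16) and IMMP2L (0.16). PTPRN2 (0.01), CSMD1 (0.00) and CNTNAP2 (-0.01) had nearly the same means. For covered bases 0 of the 9 genes passed, as did 0% of all genes, with 110 at an unadjusted p under 0.05 by limma. For the segments 0 of 90 passed, as did 0% of the 3220, with 107 at an unadjusted p under 0.05. The largest difference among the segments was in segment 8 of NBEA, with 4, 4 and 7 peaks without UV and 2, 5 and 0 at 3 h (log2 difference -1.49, SE 0.861; adjusted p = 0.961).

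The difference between the UV effects of the 2 assays was tested directly in all 10 lists. None of the 9 genes passed, where 0% of all genes did and 344 had an unadjusted p under 0.05 (limma interaction term). PTPRN2 had the highest value, 0.45 (SE 0.335; adjusted p = 0.712). FHIT had the lowest, -0.34 (SE 0.175; adjusted p = 0.585). Summed over the 9 genes, H3K36me2 peaks numbered 1765 and 1644 without UV, then 1796 and 1784 at 3 h. CTD peaks numbered 1573, 1509 and 1587 without UV, then 1439, 1550 and 1500 at 3 h. The H3K36me2 sums at 3 h both lay above those without UV. Summed over the 322 long genes, H3K36me2 density separated in the same way, with 185.4 and 180.4 peaks per Mbp without UV against 196.6 and 195.6 at 3 h, where the 9 genes had 129.6 and 120.7 against 131.9 and 131.0. The CTD sums of the 2 conditions overlapped.

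**Figure D3:**
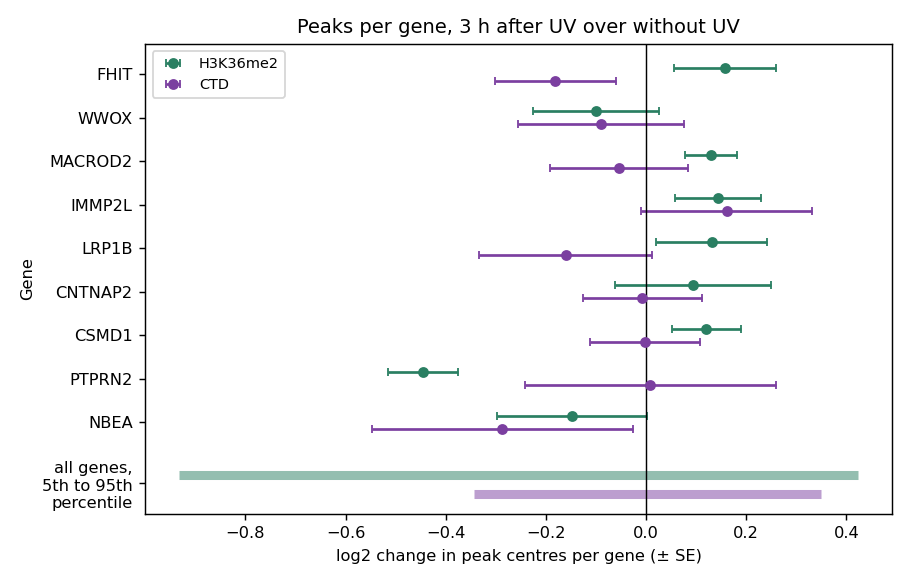
Log2 difference in peak number, 3 h after UV against no UV, with its SE, for H3K36me2 (green) and the CTD (purple) in the 9 genes. PTPRN2 lies at -0.44 for H3K36me2 and 0.01 for the CTD, and none of the 18 values passed an adjusted p of 0.05.

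Recurrence between replicates is given as a description, with no test. Of H3K36me2 peaks in the 9 genes, 50.0% to 54.9% overlapped a peak of the other replicate, against 64.3% to 65.5% of all peaks of those lists. For the CTD, where overlap with either of the other replicates counted, the shares averaged 38.01% and 50.02% over the 6 lists. The shares of the assays are therefore not on the same footing. The median width of H3K36me2 peaks was 448 to 499 bp in the 9 genes, below the 556 to 621 bp of the whole lists. In IMMP2L and NBEA, 83.9% and 87.4% of the CTD sites came from 1 list alone, against 33.96% in PTPRN2. MACROD2 had the most recurrent H3K36me2 sites, with 201 of 821 (24.5%) in all 4 lists, and CSMD1 the lowest share, with 8 of 288 (2.78%). Within 1 kb of the gene start, LRP1B had an H3K36me2 peak in 4 of 4 lists and the other 8 genes in 0.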

How the data were processed

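Chromatin immunoprecipitates were sequenced by the authors, and per the submitters' processing notes reads were trimmed with Trim Galore 0.6.5, aligned to hg38 with BWA 0.7.17-r1188, filtered with SAMtools 1.7, Picard and bedtools 2.29.2, and called as broad peaks per replicate with MACS2 2.2.7.1. For H3K36me2, single-end and paired-end reads of a replicate were merged before calling. The deposited lists give for each peak its fold enrichment (a ratio of ChIP over control) and the −log10 p and −log10 q of the peak caller; each holds 500000 peaks. H3K36me2 inputs were pooled over duplicates, and for the CTD the empty-vector controls were pooled at 3 h and left unpooled without UV. Input and empty-vector libraries entered here only through the deposited ratios.

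Peak centres were counted in genes of GENCODE release 44 with Python 3.11.15, NumPy 2.4.6, pandas 2.3.3 and pysam 0.24.0. The counts of a single list were checked with bedtools 2.31.1 and were equal in 19970 of 19970 genes. log2(count + 0.5), or log2(percent covered + 0.1), was fitted with limma 3.58.1 in R 4.3.3 with an intensity trend, and Benjamini-Hochberg adjustment ran over all 3661 protein-coding genes of 100 kb or more, or all segments (10 equal parts of each gene) of the 322 genes of 500 kb or more. The fits were tested on simulated data. Replicates are called biological in the labels. The members and lists were chosen with earlier results of these data known. All 9 genes are named in every comparison; segments were named by adjusted p under 0.05 or else the largest difference per assay, and sites by the lowest fold enrichment over lists, off chromosome 8, 3 for H3K36me2 and 2 for the CTD. A second list of 7 large genes known from fragile sites is given as counts. A further gene of each list and 1 further CTD site are not reported here. Alternatives were stricter peaks, peaks found in another replicate, other pseudocounts, length limits and flanks, centring, a replicate block and leaving out each replicate.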

Additional observations from a re-analysis of the deposited data

How the results depend on the processing

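Numbers of genes called depended strongly on the peaks counted. For H3K36me2 peaks 3 h after UV, 7 of all genes passed. The count was 1955 with peaks found in another replicate, 12 and 96 with a −log10 p of at least 2 and 3, 39 with the top quartile of fold enrichment, 0 with a pseudocount of 2, 0 with genes of 500 kb or more, 783 (94 higher) with no length filter, 252 for covered bases, and 0 to 27 leaving out each replicate. For H3K36me2 covered bases 252 passed, against 1113 with peaks found in another replicate, 0 with a −log10 p of at least 2, 140 with centred lists, and 0 to 17 leaving out each replicate. For H3K36me2 segments the 12 calls became 1588 with peaks found in another replicate and 14 to 30 leaving out each replicate. For the CTD, 0 genes passed, against 139 with peaks found in another replicate, 34 with no length filter, and 1 each with a −log10 p of at least 3 (fitted without the trend, which could not be fitted) and with the top quartile. CTD covered bases and segments went from 0 to 23 and 254 with peaks found in another replicate, and segments to 0 to 8 leaving out each replicate. H3K36me2 flank comparisons gave 2684, and 2759 with flanks of 500 kb, where 8 and not 5 of the 9 genes passed. CTD flank comparisons gave 466, 1468 with peaks found in another replicate and 211 to 404 leaving out each replicate. The difference in UV effect gave 0, 1119 with peaks found in another replicate, 8 with a −log10 p of at least 2 and 0 to 7 leaving out each replicate. The level comparison gave 1369, 2450 with peaks found in another replicate, 2260 (47 higher) with a −log10 p of at least 2 and 509 to 1334 leaving out each replicate. Where leaving out a replicate left an H3K36me2 condition with 1 list, that list was assumed to vary like the others.

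With a replicate block, 0 genes or segments passed in each UV comparison of either assay and in the difference in UV effect. The labels do not say that replicate numbers pair the samples, and deviations of same-numbered lists correlated at 0.018 for H3K36me2 and at -0.099, 0.041 and -0.26 for the CTD.

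Among the 9 genes, 4 values changed sign between the main setting used above and an alternative, with at least 1 of the opposed values called. Sign differences between alternatives are not in this number. The flank ratio of FHIT for H3K36me2 was -0.35 with flanks of 500 kb. With a −log10 p of at least 2 the level difference was -1.28 in CSMD1, -0.47 in PTPRN2 and -2.08 in CNTNAP2. The lists without UV were then unequal in length, at 221366 and 204043 peaks for H3K36me2 and 41376, 29323 and 32867 for the CTD. Counts were not scaled to these totals, so these level differences do not compare shares. The cause of the change in FHIT was not tested. The lists hold no read depth, and equal list lengths hide changes in total signal.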

Other observations

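Bases of the 9 genes that lay under a peak in at least 2 lists of a condition were compared between the assays. MACROD2 had the most bases common to both. Without UV, 223.0 kb of MACROD2 lay under H3K36me2, 82.4 kb under the CTD and 23.1 kb under both, which is 28.0% of the CTD bases and 10.3% of the H3K36me2 bases. At 3 h after UV the shared bases of MACROD2 were 22.6 kb, 22.7% of the CTD bases and 9.97% of the H3K36me2 bases. PTPRN2 had the reverse balance, with 98.7 kb under the CTD, 19.0 kb under H3K36me2 and 2.37 kb under both without UV, which is 2.40% of the CTD bases. In IMMP2L 43.7 kb lay under H3K36me2 and 2.46 kb under the CTD without UV, with 0.448 kb under both. These shares move with how much of a gene each assay covers and were not tested.

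Of 7 other large genes known from fragile sites, 0 passed in the UV comparison of peak numbers in either assay (limma, adjusted p under 0.05). At an unadjusted p under 0.05 there were 3 of the 7 for H3K36me2 and 0 for the CTD, against 640 and 51 of the 3661 genes tested. Against their flanks 5 of the 7 passed for H3K36me2, where 2684 of the 3661 genes tested did. IL1RAPL1, which codes for a synaptic membrane protein, was lower by a log2 ratio of -1.38 (SE 0.148; limma adjusted p = 0.000533), and DAB1, an adaptor of reelin signalling, by -0.23. AUTS2 (0.32), RORA (0.22) and CTNNA3 (0.19) were higher. For the CTD, IL1RAPL1 was the 1 gene of the 7 that passed (-1.31, SE 0.204; limma adjusted p = 0.00667), where 466 of the 3661 did. In the comparison of CTD with H3K36me2 levels without UV 0 of the 7 passed by limma, where 1369 of the 3661 did, and 1 of the 7 had an unadjusted p under 0.05, as did 1762 of the 3661.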
